A study of Mus musculus with 24 samples.

Results

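The 37 genes described here encode parts of the PI3K, AKT and mTOR pathway, from the insulin and IGF receptors at the cell surface to the FOXO factors in the nucleus. They were taken by symbol from a fixed list of pathway parts and not by a limit on their values. The list was, however, chosen with earlier results of these data known. All 37 were found among the 24058 gene symbols of the hippocampal count table and among the 16118 genes that passed the filter on low counts. The data are mRNA counts of mouse hippocampus, enriched with oligo(dT) beads, in 24 libraries of 6 groups, with 13261478 to 23807390 counted reads a library. All 24 libraries came from mice with the PS19 transgene, which expresses P301S mutant human tau in neurons from the mouse prion promoter, so no group was free of it.

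Animals with 1 human allele of TREM2, the lipid receptor of microglia, were compared with animals that kept both mouse alleles (Trem2+/+). The human allele was either the Alzheimer's disease risk variant (R47H-TREM2) or the common form (WT-TREM2). The groups were 5 R47H-TREM2 females with 3 Trem2+/+ females and 5 R47H-TREM2 males with 2 Trem2+/+ males, all with sample names that begin with LG72, and 6 WT-TREM2 females with 3 Trem2+/+ females, whose names begin with LG73. The labels do not say what the prefixes stand for, no prefix holds both human alleles, and the labels give no ages. Prefix and human allele therefore cannot be told apart except through each prefix's own controls. The study's title names AKT hyperactivation in microglia, and the question asked of these counts is whether mRNA of the pathway differed in whole hippocampus.

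In this pathway, insulin and IGF receptors act through IRS adaptors on class I PI3K, which makes the membrane lipid PIP3. PIP3 brings AKT to the membrane, where PDK1 and mTOR complex 2 activate it by phosphorylation. Active AKT inhibits GSK3, the TSC complex and the FOXO factors, and relief of RHEB from TSC turns on mTOR complex 1, which drives translation through S6 kinases and the 4E-BP proteins. These steps are controlled largely by phosphorylation and lipid turnover, which mRNA counts do not measure. TREM2 signals in microglia through the adaptor TYROBP, which can recruit PI3K.

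Of these 37 genes, 33 had at least 1 promoter in the RefSeq table of the GRCm38.p6 build, which gives 250 bases before and 50 bases after a start site. The promoters of 3 genes are shown because Pik3cg had the smallest p in the comparison of R47H-TREM2 females and in the test over all groups, and because Irs2 and Foxo3 varied most between libraries of a group for their level. They are given 5′ to 3′ on the strand of the gene, and capitals mark a match to one of the motifs searched. Pik3cg has 2 promoters in the table, of which the one shown lies at chr12:32208610-32208909, minus strand. Irs2 lies at chr8:11008880-11009179 and Foxo3 at chr10:42276646-42276945, both on the minus strand.
Pik3cg: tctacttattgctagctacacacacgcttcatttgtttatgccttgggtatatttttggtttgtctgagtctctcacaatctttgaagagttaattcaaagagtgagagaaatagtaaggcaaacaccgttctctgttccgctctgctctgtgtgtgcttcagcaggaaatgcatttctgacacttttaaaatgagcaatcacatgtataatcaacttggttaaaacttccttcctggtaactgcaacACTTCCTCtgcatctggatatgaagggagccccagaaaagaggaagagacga
Irs2: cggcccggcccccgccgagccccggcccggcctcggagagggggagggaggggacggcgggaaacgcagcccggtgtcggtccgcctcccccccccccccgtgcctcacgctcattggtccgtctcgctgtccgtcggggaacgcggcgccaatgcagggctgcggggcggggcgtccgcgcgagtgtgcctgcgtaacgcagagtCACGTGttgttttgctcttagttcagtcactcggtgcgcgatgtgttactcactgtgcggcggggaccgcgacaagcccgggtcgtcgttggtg
Foxo3: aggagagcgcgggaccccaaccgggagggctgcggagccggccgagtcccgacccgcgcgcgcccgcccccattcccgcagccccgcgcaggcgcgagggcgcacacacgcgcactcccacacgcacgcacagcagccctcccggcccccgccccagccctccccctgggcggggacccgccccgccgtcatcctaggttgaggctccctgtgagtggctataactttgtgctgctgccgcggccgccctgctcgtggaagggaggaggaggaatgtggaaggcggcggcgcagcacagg
The motifs were FOXO (GTAAACA), PU.1 (GAGGAAGT), ATF4 (TGATGNAA), the glucocorticoid receptor (AGAACA and TGTTCT, 3 bases apart) and the E-box (CACGTG), searched on both strands. The capitals in Pik3cg are the PU.1 motif on the opposite strand, and those in Irs2 are the E-box, which reads the same on both strands. None of the motifs occurred in the Foxo3 window. The PU.1 letters were in 3.20% of all 32851 promoters and in 2 of the 49 promoters of the pathway genes, both of them Pik3cg. These 2 windows overlap, and their match is the same site, counted for each window. The FOXO letters were in 3.65% of all promoters and in 4 of the 49, the ATF4 letters in 3.97% and in 2, the E-box in 7.15% and in 4, and the glucocorticoid receptor letters in 0.00913% and in 0. The FOXO matches in the 2 promoters of Mapkap1 are likewise the same site, in windows that overlap. The Pik3cg window shown held 40.7% G and C bases, against 72% in that of Irs2 and 75% in that of Foxo3. The median was 60% over the 49 promoters of the pathway genes and 52.7% over all promoters.

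Every pathway gene was expressed. All 37 were above 1 CPM (counts scaled to library size with TMM factors) in each of the 24 libraries, and the lowest count of any of them in any library was 30. Levels between genes are compared per length, as CPM for each 1000 bases of exon (RPKM), with SD over the 24 libraries. The highest was Gsk3a, a kinase that AKT inhibits, at 80.1 ± 13.9 RPKM, followed by Akt1 at 52.7 ± 11.0 RPKM and by Pik3r2, a regulatory subunit of PI3K, at 47.3 ± 9.86 RPKM. The lowest were Pik3cg, the catalytic subunit p110 gamma known best from white blood cells, at 0.533 ± 0.213 RPKM, the phosphatase Inpp4b at 0.704 ± 0.154 RPKM, and the S6 kinase gene Rps6kb2 at 0.965 ± 0.271 RPKM.

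**Figure D1:**
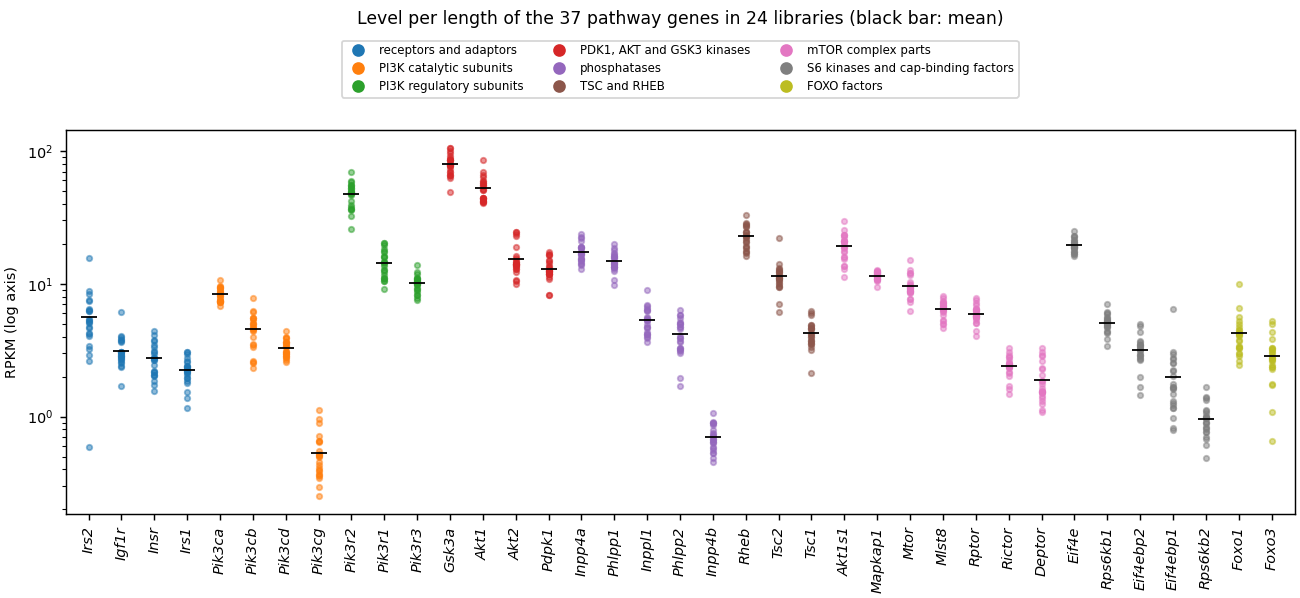
Level per length of the 37 genes (RPKM, log axis) in each of the 24 libraries (points) with the mean (black bar), coloured and grouped by role. Gsk3a, Akt1 and Pik3r2 stand at the top with means of 80.1, 52.7 and 47.3 RPKM, and Pik3cg and Inpp4b at the bottom with 0.533 and 0.704 RPKM.

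Genes of the same role differed widely in level. Pik3ca, the widely expressed p110 alpha subunit, gave 49.98 ± 4.01% of the summed RPKM of the 4 catalytic subunits, and Pik3cg gave 3.22 ± 1.33%. Among the regulatory subunits Pik3r2 gave 65.4 ± 7.48%. Among the adaptors and receptors, Irs2 was the highest at 5.59 ± 2.88 RPKM and Irs1 the lowest at 2.23 ± 0.486 RPKM, and the insulin receptor Insr and the IGF receptor Igf1r had 2.74 ± 0.766 and 3.14 ± 0.849 RPKM, within each other's spread. Among the phosphatases that counter PI3K and AKT, Inpp4a was the highest at 17.3 ± 2.90 RPKM. Rheb, the GTPase that activates mTOR, had 22.8 ± 4.29 RPKM, above its inhibitors Tsc2 at 11.4 ± 2.91 and Tsc1 at 4.26 ± 0.950 RPKM. In the mTOR complexes Akt1s1, an inhibitory part of complex 1, was the highest at 19.3 ± 4.33 RPKM and Deptor, an inhibitor of mTOR, the lowest at 1.89 ± 0.643 RPKM. Eif4e, which binds the mRNA cap, had 19.7 ± 2.21 RPKM, and of its repressors Eif4ebp1 ranged over 0.789 to 6.43 RPKM and Eif4ebp2 over 1.46 to 4.96 RPKM. Foxo1 had 4.24 ± 1.58 RPKM and Foxo3 2.85 ± 1.06 RPKM. Exons of another gene overlapped 28.3% of the exon bases of Gsk3a, 22.5% of those of Mlst8, 20.3% of those of Inppl1, 30.9% of those of Irs1, 24.3% of those of Pik3r3 and 23.7% of those of Rps6kb2, and no source used here says whether counting used strand, so reads of these genes and of their overlapping partners may be mixed. Akt2 has an annotated pseudogene, Akt2-ps, with which it may share reads.

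The genes differed widely in how steady they were between libraries of a group. The SD of log2 CPM within groups had a median of 0.316 over the 37 genes and of 0.397 over all genes tested. It was lowest for Mapkap1, a core part of mTOR complex 2, at 0.0921, which is at the 0 percentile of genes at its level. Mapkap1 lay between 38.2 and 51.2 CPM in all 24 libraries. It was highest for Irs2 at 0.892, the 99.1 percentile of genes at its level, and second highest for Foxo3 at 0.681, the 96.4 percentile. Irs2 ranged over 26.9-fold and Foxo3 over 8.03-fold across the libraries.

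**Figure D2:**
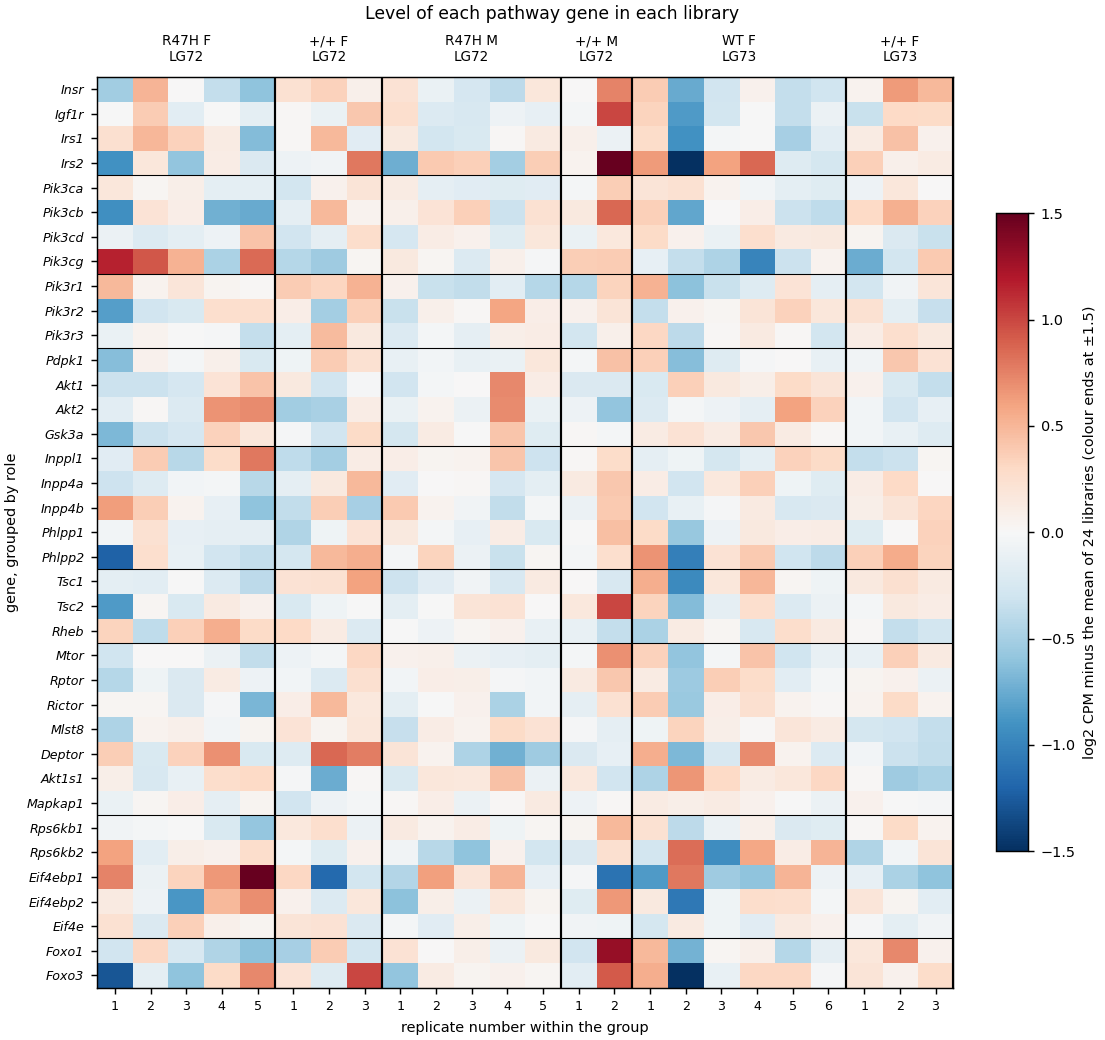
Log2 CPM of each gene (rows, grouped by role) in each library (columns, by group and replicate number), less that gene's mean over the 24 libraries; red is above the mean and blue below, and the colour ends at ±1.5. WT-TREM2 female 2 is low and Trem2+/+ male 2 is high in Irs2, Foxo3 and Foxo1, and Pik3cg is high in 4 of the 5 R47H-TREM2 females.

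WT-TREM2 female 2, Trem2+/+ male 2 and R47H-TREM2 female 1 stood apart in these genes. WT-TREM2 female 2 had 3.70 CPM of Irs2, against 25.8 to 56.0 CPM in the other WT-TREM2 females and 32.5 to 39.7 CPM in their controls. It had 4.97 CPM of Foxo3, against 18.5 to 29.0 CPM in the other WT-TREM2 females and 20.8 CPM or more in their controls. Its mean of centred log2 CPM over the 37 genes was -0.395, and 12 of the 37 were above their mean over all libraries. Trem2+/+ male 2, a control, went the other way. It had 99.5 CPM of Irs2, against 32.0 CPM in the other Trem2+/+ male, and 37.6 against 17.9 CPM of Foxo3. It also had 86.5 against 28.6 CPM of Foxo1, and 26 of the 37 genes were above their mean. R47H-TREM2 female 1 was the highest library in Pik3cg and low in Foxo3, with centred log2 CPM of 1.14 and -1.27. It also had the largest share of all genes more than 1 from their mean, 23.8%, against 14.9% or fewer in every other library. Its 13261478 counted reads were the fewest of the 24 libraries.

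WT-TREM2 female 2 and Trem2+/+ male 2 also stood apart in genes outside the pathway. The slope of centred log2 CPM on log2 exon length over all genes was -0.347 in WT-TREM2 female 2, the lowest of the 24, and 0.246 in Trem2+/+ male 2, the highest. Glucocorticoid-induced genes summed to 2272 CPM in Trem2+/+ male 2, against 870 CPM in the other Trem2+/+ male and 792 to 1001 CPM in R47H-TREM2 males. They summed to 851 to 1197 CPM in R47H-TREM2 females, against 1982, 751 and 1027 CPM in Trem2+/+ females of LG72, so 1 female control was also high, and 11 of these 14 genes were lower in R47H-TREM2 females, with a median log2 fold change of -0.61. Markers of striatal projection neurons, a cell type of a neighbouring brain region, summed to 1170 CPM in WT-TREM2 female 2 and to 977 CPM in Trem2+/+ female 3 of LG72, and 1 of these markers, Gpr6, was at 0 in at least 1 library. Markers of hippocampal neurons were present in every library, with sums of 209 to 771 CPM. Choroid plexus markers summed to 51.0 to 3569 CPM. In 6 libraries Prl or Omp exceeded 50 CPM or Adora2a exceeded 30 CPM, which mark pituitary, olfactory epithelium and striatum. Trem2+/+ female 1 of LG72 had 420 CPM of Omp, and Trem2+/+ female 3 of LG72 had 53.6 CPM of Adora2a. R47H-TREM2 female 5 had 978 CPM of Prl, and Trem2+/+ female 3 of LG73 had 58.7 CPM. WT-TREM2 females 2 and 5 had 57.8 and 33.5 CPM of Adora2a. Among the LG72 female controls, only Trem2+/+ female 2 was within these limits. The part of these differences in the results was not tested. Mouse Trem2 itself averaged 18.1 ± 8.94 CPM in R47H-TREM2 females and 16.5 ± 10.3 CPM in Trem2+/+ females, 11.5 ± 3.20 CPM in R47H-TREM2 males and 24.1 ± 4.59 CPM in Trem2+/+ males, and 12.4 ± 11.1 CPM in WT-TREM2 females and 11.8 ± 4.99 CPM in Trem2+/+ females of LG73. It does not check the labels, because reads of the human allele may or may not have been counted as mouse Trem2.

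No pathway gene passed an adjusted p of 0.05 in any comparison of a human allele with Trem2+/+. The test was edgeR's quasi-likelihood test with Benjamini-Hochberg adjustment over all 16118 genes, which called 0 genes (0% of all tested) in each of the 3 comparisons. Differences below are therefore values with their spread, none of which passed the test.

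**Figure D3:**
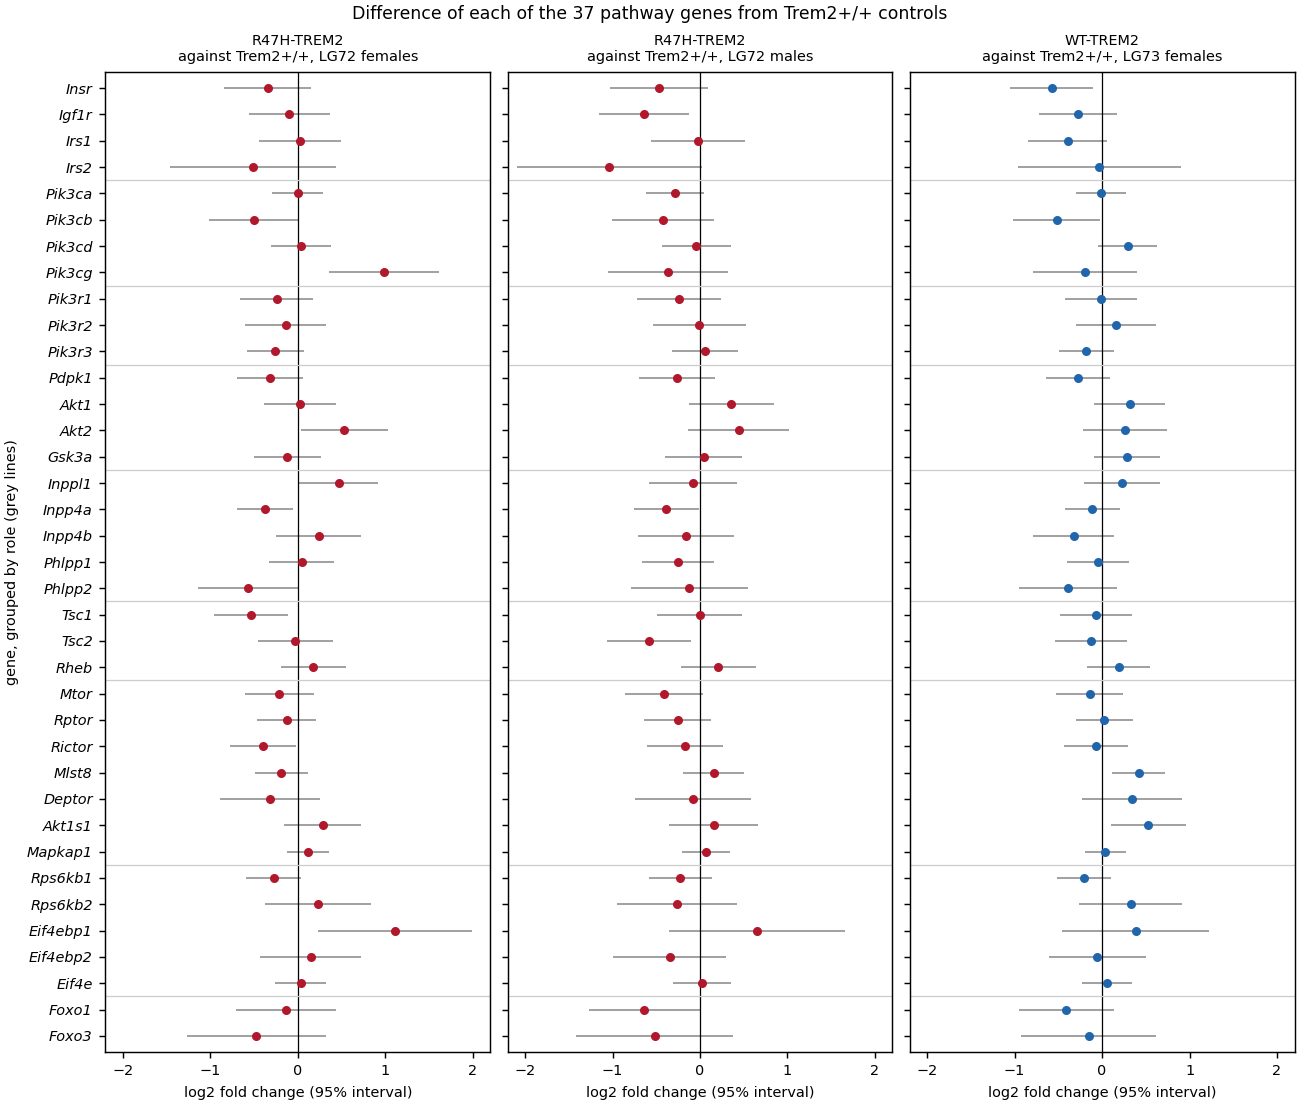
Log2 fold change (points) with its approximate 95% interval (bars) of each of the 37 genes, grouped by role, in R47H-TREM2 females, R47H-TREM2 males and WT-TREM2 females against their own Trem2+/+ controls. Pik3cg and Eif4ebp1 lie farthest to the right in R47H-TREM2 females, at 0.98 and 1.11, and Irs2 farthest to the left in R47H-TREM2 males, at -1.03.

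In R47H-TREM2 females, Pik3cg and Eif4ebp1 were the genes with the largest log2 fold changes above 0, and Tsc1 was lower in all 5 libraries than in all 3 controls. At an unadjusted p of 0.05, 6 of the 37 genes passed, 3 higher (Pik3cg, Eif4ebp1, Akt2) and 3 lower (Tsc1, Inpp4a, Rictor), beside 14.1% of all genes tested, 8.68% higher and 5.37% lower. The median log2 fold change over the 37 genes was -0.12, with 15 above 0 and 22 below, against 0.00 over all genes, of which 8132 were above 0 and 7984 below. The median over the 37 was 0.00278 without Trem2+/+ female 3, the control high in striatal markers. Another of these controls, Trem2+/+ female 1, had 420 CPM of the olfactory marker Omp. Groups did not overlap for 2 of the 37, Tsc1 and Rictor, both lower, beside 6.01% of all genes and 2.42% that were lower. Depth did not overlap either, with 13261478 to 17442293 counted reads in R47H-TREM2 females and 17545680 to 23807390 in their controls. The part of depth in these values was not tested.

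Pik3cg had 9.37, 8.02, 6.02, 3.02 and 7.55 CPM in R47H-TREM2 females, against 3.11, 2.91 and 4.29 CPM in Trem2+/+ females. The 4 highest libraries of the R47H-TREM2 group were above every control, and R47H-TREM2 female 4 was within the control range. The means were 6.80 ± 2.43 CPM (SD, n = 5) and 3.44 ± 0.748 CPM (n = 3), a log2 fold change of 0.98 (SE 0.32) with an adjusted p of 0.212 from edgeR. It was 0.83 to 1.17 when each library was left out in turn, and 0.84 without R47H-TREM2 female 1.

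Microglial markers moved with Pik3cg over these libraries. All 15 of 15 listed microglial genes had a log2 fold change above 0 in R47H-TREM2 females, with a median of 0.98, and their summed level was 558 to 1781 CPM, against 533 to 665 CPM in Trem2+/+ females. None of the defining markers was at 0 in any library. The mean of their centred log2 CPM was 1.10, 0.53, 0.32, -0.49 and 0.69 in R47H-TREM2 females 1 to 5, so the library lowest in Pik3cg was also the lowest in these markers, and -0.79, -0.59 and -0.31 in the controls. In bulk tissue, more cells of a type and more RNA per cell cannot be told apart, and the part of microglial content in the Pik3cg values was not tested.

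Markers of other cell types also differed between these groups, beside the values of Pik3cg and of Eif4ebp1, Akt2, Tsc1, Rictor and Inpp4a. Oligodendrocyte markers were above 0 in 7 of 7, with a median log2 fold change of 0.76, and summed to 8023 to 18430 CPM in R47H-TREM2 females, against 4854 to 6187 CPM in Trem2+/+ females. Astrocyte markers were above 0 in 7 of 7, with a median of 0.41, and summed to 7162 to 19740 CPM in R47H-TREM2 females, against 4465 to 7900 CPM in Trem2+/+ females. General neuron markers were below 0 in 6 of 7, with a median of -0.30, and summed to 6087 to 11110 CPM in R47H-TREM2 females, against 9293 to 12090 CPM in Trem2+/+ females, while those of hippocampal neurons were above 0 in 6 of 8. Striatal markers were below 0 in 9 of 9, with a median of -1.83, and summed to 183 to 271 CPM in R47H-TREM2 females, against 261 to 977 CPM in Trem2+/+ females. None of these markers was at 0 in any library of either group, and their part in the values of the pathway genes was not tested. Inpp5d, the microglial lipid phosphatase SHIP1, had 17.7 ± 5.41 CPM in R47H-TREM2 females and 9.09 ± 2.75 CPM in Trem2+/+ females, with an adjusted p of 0.216 from edgeR. Pik3cd, the p110 delta subunit of white blood cells, had a log2 fold change of 0.03 in the same comparison.

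Eif4ebp1, which encodes the translation repressor 4E-BP1 and is itself a target of ATF4, had 6.52, 3.66, 4.89, 6.11 and 14.1 CPM in R47H-TREM2 females, against 4.83, 1.73 and 3.23 CPM in Trem2+/+ females. The groups overlapped, and R47H-TREM2 female 5 was far above all other libraries. The log2 fold change was 1.11 (SE 0.45, adjusted p 0.286, edgeR) and 0.69 without that library, which also had 978 CPM of the pituitary hormone Prl. Of 18 listed ATF4 target genes, Eif4ebp1 among them, 15 had a log2 fold change above 0, with a median of 0.31, and 0 passed the adjusted test. The one-carbon enzyme gene Mthfd2 had 9.38 ± 1.91 CPM in R47H-TREM2 females and 4.82 ± 1.37 CPM in Trem2+/+ females, with all 5 libraries above all 3 controls and an adjusted p of 0.263 from edgeR.

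Tsc1, the scaffold of the complex that restrains RHEB, had 44.3, 44.2, 49.1, 42.6 and 37.5 CPM in R47H-TREM2 females, against 56.9, 57.6 and 74.4 CPM in Trem2+/+ females. Every R47H-TREM2 library was below every control. The log2 fold change was -0.53 (SE 0.22, adjusted p 0.286, edgeR), and -0.395 without Trem2+/+ female 3, the control high in striatal markers. Over the alternatives other than single libraries left out, Tsc1 had -0.553 to -0.358. Its partner Tsc2, the GTPase activator of the complex, had a log2 fold change of -0.03. Rictor, the defining part of mTOR complex 2, had 41.1, 41.0, 34.5, 39.7 and 25.1 CPM in R47H-TREM2 females, against 43.0, 56.0 and 44.8 CPM in Trem2+/+ females, a log2 fold change of -0.40 (adjusted p 0.349, edgeR). The other core part of that complex, Mapkap1, had a log2 fold change of 0.12. Among the AKT kinases, Akt2 averaged 128 ± 40.7 CPM in R47H-TREM2 females and 88.7 ± 23.0 CPM in Trem2+/+ females, a log2 fold change of 0.53 (adjusted p 0.347, edgeR), and Akt1 had a log2 fold change of 0.02.

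**Figure D4:**
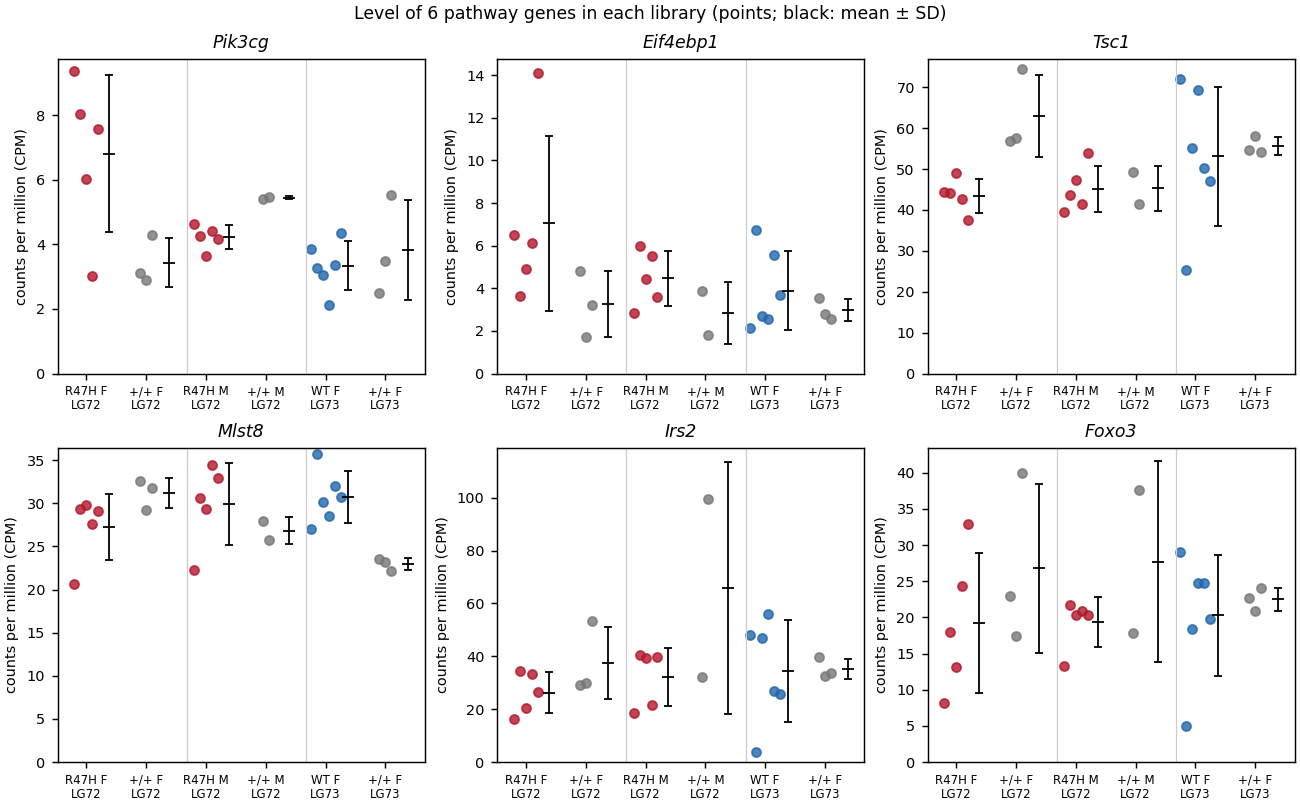
CPM of 6 genes in every library (points) by group, with mean ± SD beside them (black); each group with a human TREM2 allele (red R47H, blue WT) stands left of its own Trem2+/+ controls (grey). Pik3cg is above all 3 controls in 4 of 5 R47H-TREM2 females and below both controls in all 5 R47H-TREM2 males; Mlst8 is above all 3 controls in all 6 WT-TREM2 females.

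In R47H-TREM2 males the genes with the smallest p were Igf1r, Tsc2 and Inpp4a, all lower than in Trem2+/+ males. At an unadjusted p of 0.05, 2 of the 37 genes passed, both lower, beside 6.17% of all genes, 2.67% higher and 3.50% lower. The median log2 fold change was -0.17, with 10 genes above 0 and 27 below, against 0.03 over all genes, of which 8538 were above 0 and 7578 below. Groups did not overlap for 4 of the 37 genes (Pik3cg, Inpp4a and Rptor all lower, Rheb all higher), beside 11.3% of all genes, 4.95% lower and 6.38% higher. These values rest on 2 controls, of which 1 stood apart, and without Trem2+/+ male 2 the median was 0.01.

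Igf1r had 61.2, 44.5, 43.4, 48.6 and 46.9 CPM in R47H-TREM2 males, against 50.1 and 103 CPM in Trem2+/+ males. The R47H-TREM2 libraries lay around the lower control, and only the higher control was above all of them. The log2 fold change was -0.64 (SE 0.26, adjusted p 0.779, edgeR) and -0.04 without Trem2+/+ male 2. Tsc2 had 96.7, 106.2, 122, 123.96 and 107 CPM in R47H-TREM2 males, against 120 and 213 CPM in Trem2+/+ males, with a log2 fold change of -0.58 (SE 0.24, adjusted p 0.779, edgeR) and of -0.11 without that control. Inpp4a, a phosphatase of the PI3K product PI(3,4)P2, was less dependent on it. It had 158, 178, 180, 149 and 160 CPM in R47H-TREM2 males, against 196 and 235 CPM in Trem2+/+ males, with a log2 fold change of -0.38 (SE 0.19, adjusted p 0.779, edgeR) and of -0.25 without that control. In R47H-TREM2 females it averaged 156 ± 17.8 CPM, against 203 ± 43.5 CPM in Trem2+/+ females, also a log2 fold change of -0.38 (adjusted p 0.311, edgeR) and of -0.21 without Trem2+/+ female 3.

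Pik3cg was the other way round in males. It had 4.64, 4.27, 3.65, 4.42 and 4.15 CPM in R47H-TREM2 males, against 5.42 and 5.48 CPM in Trem2+/+ males, so that every R47H-TREM2 male was below both controls, with a log2 fold change of -0.37. Microglial genes summed to 648 to 1282 CPM in R47H-TREM2 males and 1091 to 1119 CPM in Trem2+/+ males, and 7 of 15 had a log2 fold change above 0. The effect in females less the effect in males was 1.35 on the log2 scale (SE 0.47), the smallest p of the 37 genes for that difference, with an adjusted p of 0.697 from edgeR, where 0 of all genes passed (0%). At an unadjusted p of 0.05, 5.34% of all genes passed. The next genes in that order were Tsc2, at 0.55, and Inppl1, the lipid phosphatase SHIP2, at 0.55. The Tsc2 difference was 0.07 without Trem2+/+ male 2. Inppl1 had 29.6, 43.3, 25.0, 40.3 and 57.5 CPM in R47H-TREM2 females, against 25.6, 23.4 and 35.9 CPM in Trem2+/+ females, and 35.6, 34.3, 34.5, 44.3 and 26.8 CPM in R47H-TREM2 males, against 33.9 and 40.4 CPM in Trem2+/+ males. Its groups overlapped in both sexes.

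In WT-TREM2 females the genes with the smallest p were Mlst8, Akt1s1 and Insr. At an unadjusted p of 0.05, 3 of the 37 genes passed, 2 higher and 1 lower, beside 3.91% of all genes, 2.28% higher and 1.63% lower. The median log2 fold change was -0.05, with 15 above 0 and 22 below, against 0.04 over all genes, of which 8802 were above 0 and 7315 below. Without WT-TREM2 female 2 the median over the 37 was 0.04. Groups did not overlap for 2 of the 37, Mlst8 and Gsk3a, both higher, beside 2.82% of all genes and 1.37% that were higher.

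Mlst8, a shared part of both mTOR complexes, had 27.0, 35.7, 30.2, 28.5, 32.0 and 30.8 CPM in WT-TREM2 females, against 23.5, 23.2 and 22.2 CPM in their Trem2+/+ controls. All 6 libraries were above all 3 controls. The log2 fold change was 0.42 (SE 0.15, adjusted p 0.859, edgeR). The controls of the other prefix were higher: Trem2+/+ females of LG72 had 32.6, 29.2 and 31.8 CPM, all above the Trem2+/+ females of LG73, a log2 fold change of 0.44 between control groups of the same genotype and sex (adjusted p 0.998, edgeR, where 0% of genes passed and 4.09% of all genes were higher in all 3 libraries). Deptor differed between these control groups by 0.79 and Pik3r1 by 0.44 on the log2 scale, both with an adjusted p of 0.998 from edgeR. Akt1s1 had 41.7, 91.3, 71.2, 62.98, 64.8 and 71.7 CPM in WT-TREM2 females, against 58.2, 40.0 and 41.6 CPM in Trem2+/+ females. It was above all 3 controls in 5 of 6 libraries, with a log2 fold change of 0.53 (SE 0.22, adjusted p 0.859, edgeR) and of 0.31 with each library's length slope as a covariate. Insr had 47.2, 21.5, 29.8, 37.9, 28.4 and 29.6 CPM in WT-TREM2 females, against 37.7, 56.6 and 50.8 CPM in Trem2+/+ females, with a log2 fold change of -0.58 (SE 0.24, adjusted p 0.859, edgeR) and of -0.36 with that covariate. It was below all 3 controls in 4 of 6 libraries. Gsk3a had 248, 266, 250, 303, 250 and 232 CPM in WT-TREM2 females, against 223, 213 and 200 CPM in Trem2+/+ females, a log2 fold change of 0.28 with an adjusted p of 0.859 from edgeR.

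The effect of the R47H allele in LG72 females less that of the WT allele in LG73 females passed the adjusted test for 0 of the 37 genes and 0 of all genes (0%), and 9.06% of all genes passed an unadjusted p of 0.05. The smallest p among the 37 belonged to Mlst8, with a difference of -0.61 (SE 0.22, adjusted p 0.388, edgeR). Mlst8 had 20.6, 29.3, 29.8, 27.6 and 29.1 CPM in R47H-TREM2 females, against the 32.6, 29.2 and 31.8 CPM of their Trem2+/+ controls. Pik3cg followed with 1.18 (SE 0.44, adjusted p 0.412, edgeR). WT-TREM2 females had 3.86, 3.28, 3.04, 2.11, 3.35 and 4.34 CPM of Pik3cg, against 2.50, 3.47 and 5.51 CPM in their Trem2+/+ controls, which overlapped. Inpp4b came next, with 0.56 (SE 0.34, adjusted p 0.648, edgeR), 0.40 to 0.87 with each library left out, the highest without Trem2+/+ female 2 of LG72, and 0.12 without the 6 libraries high in Prl, Omp or Adora2a. Without those 6, Trem2+/+ female 2 was the only LG72 female control left. Inpp4b had 13.9, 11.6, 9.32, 8.23 and 5.93 CPM in R47H-TREM2 females, against 6.94, 11.6 and 6.37 CPM in Trem2+/+ females, and 7.38, 8.35, 8.90, 9.83, 7.62 and 7.71 CPM in WT-TREM2 females, against 9.58, 10.3 and 11.3 CPM in Trem2+/+ females. In the test of any difference among the 6 groups, 10 of all genes (0.0620%) passed and 0 of the 37, while 10.8% of all genes passed an unadjusted p of 0.05, and the smallest p values among the 37 were those of Pik3cg (adjusted p 0.377), Pik3cb (0.441) and Eif4ebp1 (0.448), by edgeR. Pik3cb, the p110 beta subunit, had 16.6, 36.1, 33.4, 18.9 and 18.5 CPM in R47H-TREM2 females, against 28.4, 43.8 and 32.5 CPM in Trem2+/+ females. It had 32.9, 35.9, 40.0, 25.1 and 36.5 CPM in R47H-TREM2 males, against 34.6 and 56.6 CPM in Trem2+/+ males. It had 40.0, 18.2, 31.5, 33.5, 25.0 and 24.1 CPM in WT-TREM2 females, against 38.5, 45.1 and 39.7 CPM in Trem2+/+ females. Its mean was lower than that of the controls in each of the 3 comparisons, with log2 fold changes of -0.50, -0.42 and -0.52, but in males it was -0.02 without Trem2+/+ male 2.

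By role, every gene was below 0 for the regulatory subunits and the FOXO factors in R47H-TREM2 females, for the receptors and adaptors, the catalytic subunits, the phosphatases and the FOXO factors in R47H-TREM2 males, and for the receptors and adaptors and the FOXO factors in WT-TREM2 females. The other roles had genes on both sides of 0. None of these genes passed the adjusted test, and 13, 19 and 11 of the 37 changed sign in at least 1 fit with a library left out, in R47H-TREM2 females, R47H-TREM2 males and WT-TREM2 females.

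The 4 receptors and adaptors had log2 fold changes of -0.35 (Insr), -0.10 (Igf1r), 0.02 (Irs1) and -0.51 (Irs2) in R47H-TREM2 females. In R47H-TREM2 males Irs2 had -1.03, but 0.000176 without Trem2+/+ male 2, and Insr had -0.47, but -0.05 without it. In WT-TREM2 females Irs2 had -0.03, but 0.21 without WT-TREM2 female 2. Foxo1 had -0.13 in R47H-TREM2 females, but 0.14 without Trem2+/+ female 2, and Foxo3 had -0.47, but -0.07 without Trem2+/+ female 3. In R47H-TREM2 males Foxo1 and Foxo3 had -0.64 and -0.52, but 0.37 and 0.11 without Trem2+/+ male 2. In WT-TREM2 females they had -0.41 and -0.15, and Foxo3 had 0.05 without WT-TREM2 female 2. The direction of both FOXO genes therefore turned with 1 library in males.

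The mTOR complex parts had 2 of 7 above 0 in R47H-TREM2 females, 3 of 7 in R47H-TREM2 males and 5 of 7 in WT-TREM2 females. Mtor itself had log2 fold changes of -0.22, -0.41 and -0.14 in that order of comparisons, with -0.08 without Trem2+/+ female 3 in the first, -0.01 without Trem2+/+ male 2 in the second and -0.02 without Trem2+/+ female 2 of LG73 in the last. Akt2 had 0.53, 0.44 and 0.26, with 0.20 without Trem2+/+ male 2 and 0.14 without WT-TREM2 female 5. Akt1 had 0.02, 0.36 and 0.32, with -0.13 without Trem2+/+ female 2 of LG72 and 0.17 without R47H-TREM2 male 4.

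Fold changes of the pathway genes ran with exon length. Summed exon length had a median of 7721 bases over the 37 genes and of 4296 bases over all genes with a length. Spearman's rho between log2 fold change and exon length over the 37 genes was -0.41 in R47H-TREM2 females, -0.54 in R47H-TREM2 males and -0.63 in WT-TREM2 females, a description across genes that share libraries. Over 15361 genes it was -0.21, -0.34 and -0.35. Of the 18 genes with the longer exons, 15, 18 and 16 had a log2 fold change below 0 in these comparisons, with medians of -0.23, -0.26 and -0.17, and all 2811 genes as long had medians of -0.12, -0.18 and -0.13. Of the 19 with the shorter exons, 7, 9 and 6 were below 0, with medians of 0.03, 0.03 and 0.19, and the 12550 other genes with a length had medians of 0.03, 0.07 and 0.09. With each library's length slope as a covariate, the median over the 37 genes was -0.04, -0.05 and 0.03.

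**Figure D5:**
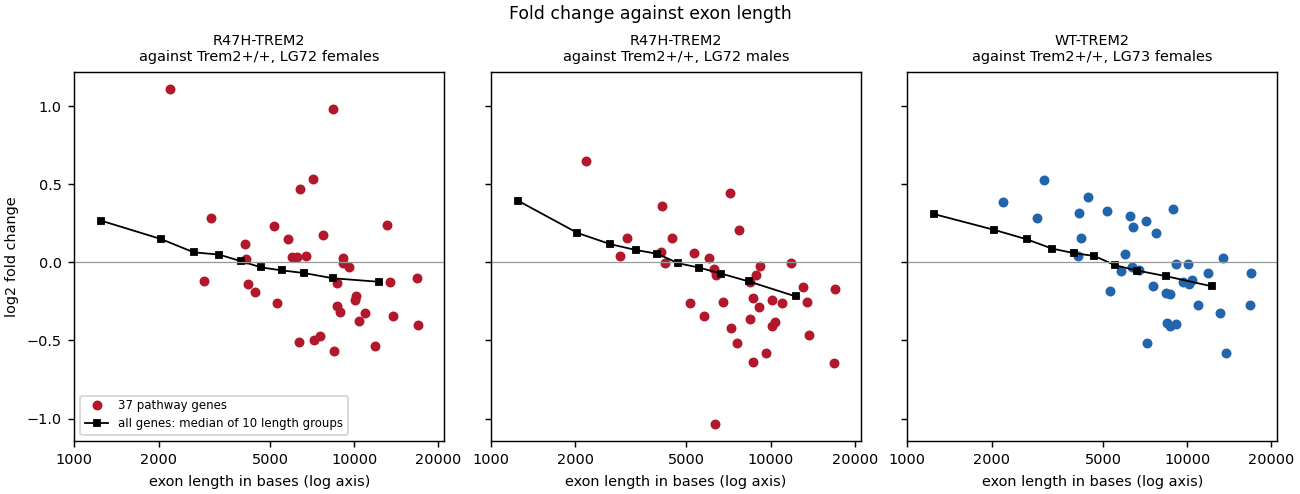
Log2 fold change against summed exon length (bases, log axis) for the 37 genes (points) and the median of all genes in 10 equal groups by length (black line), in R47H-TREM2 females, R47H-TREM2 males and WT-TREM2 females against Trem2+/+. The line falls with length in all 3, to -0.13, -0.22 and -0.15 in the longest group, and most of the longer pathway genes lie below 0.

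Ratios of paired genes within a library were tested with two-sided exact permutation tests for 12 pairs in the 3 comparisons, 36 tests in all. Even with every test at the smallest p its design allows, the adjusted p could not go below 0.0536, so no ratio could pass 0.05 in any comparison, and the ratios are given as a description. The ratio of Phlpp1 to Phlpp2, the phosphatases that remove a phosphate from AKT, was 2.72, 1.54, 1.54, 1.70 and 1.78 on the log2 scale in R47H-TREM2 females, against 1.37, 1.004 and 1.22 in Trem2+/+ females. The groups did not overlap, with an exact permutation p of 0.0357, the smallest this design can give, and an adjusted p of 0.428. The difference of the means was 0.66, but 0.44 without R47H-TREM2 female 1. In WT-TREM2 females the ratio of Insr to Igf1r averaged -0.50 ± 0.11 (log2, SD, n = 6) and -0.18 ± 0.10 in Trem2+/+ females (n = 3), and that of Pik3cd to Pik3cb averaged -0.31 ± 0.37 and -1.17 ± 0.26. Both had an exact permutation p of 0.0238, the smallest possible, and an adjusted p of 0.428. In males the smallest p that 5 against 2 libraries can give is 0.0952.

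Other genes of the pathway showed no call either. Of 19 further PI3K pathway genes, 0 passed the adjusted test in any of the 3 comparisons, with 8, 5 and 6 above 0, and of 49 further mTOR pathway genes 0 passed, with 20, 19 and 29 above 0. Grb10, an adaptor that inhibits insulin and IGF receptors, had 16.4 ± 1.34 CPM in R47H-TREM2 females and 24.9 ± 4.79 CPM in Trem2+/+ females, every R47H-TREM2 library being below every control, with an adjusted p of 0.233 from edgeR. Sgk1, a kinase related to AKT that glucocorticoids induce, had 61.1 ± 44.3 CPM in R47H-TREM2 males and 129 ± 114 CPM in Trem2+/+ males, with an adjusted p of 0.779 from edgeR. Its log2 fold change was -1.07, but 0.35 without Trem2+/+ male 2, which had 209 CPM, against 48.0 CPM in the other control. Ddit4l, which inhibits mTOR complex 1, had 14.4 ± 3.62 CPM in R47H-TREM2 males and 6.79 ± 2.12 CPM in Trem2+/+ males, all 5 above both controls, with the same adjusted p.

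Of 8 ligands and binding proteins of insulin and IGF, 4, 7 and 3 were above 0 and 0 passed. Igfbp5, an IGF binding protein, had 388 ± 157 CPM in R47H-TREM2 females and 174 ± 55.8 CPM in Trem2+/+ females, all 5 above all 3 controls, with an adjusted p of 0.193 from edgeR. Igf2, a growth factor gene made by choroid plexus and meninges, averaged 144.4 ± 90.6 CPM in R47H-TREM2 females and 53.4 ± 39.4 CPM in Trem2+/+ females, 117 ± 100.5 CPM in R47H-TREM2 males and 38.7 ± 1.01 CPM in Trem2+/+ males, and 46.4 ± 24.2 CPM in WT-TREM2 females and 116 ± 47.3 CPM in Trem2+/+ females. Choroid plexus markers went the same way: 10, 10 and 0 of 10 had a log2 fold change above 0, with medians of 1.84, 2.41 and -2.09, and their summed level was 370 to 3569 CPM in R47H-TREM2 females and 65.6 to 638 CPM in Trem2+/+ females, 100.6 to 2621 CPM in R47H-TREM2 males and 125 to 170 CPM in Trem2+/+ males, and 51.0 to 676 CPM in WT-TREM2 females and 429 to 1745 CPM in Trem2+/+ females. Its part in the Igf2 values was not tested.

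Of 20 genes known as FOXO targets, 9, 5 and 9 were above 0 and 0 passed. Cdkn1a, a cell cycle inhibitor that FOXO factors, p53 and glucocorticoids can induce, had 13.7 ± 2.83 CPM in R47H-TREM2 males and 86.5 ± 92.4 CPM in Trem2+/+ males, with an adjusted p of 0.164 from edgeR. Trem2+/+ male 2 had 151.9 CPM and the other control 21.2 CPM, and the log2 fold change was -2.65 with both and -0.62 without Trem2+/+ male 2. Fbxo32, a ubiquitin ligase gene, had 41.7 ± 15.4 CPM in R47H-TREM2 females and 22.8 ± 5.05 CPM in Trem2+/+ females (adjusted p 0.286, edgeR). Of the 18 ATF4 target genes, 13 and 14 were above 0 in R47H-TREM2 males and WT-TREM2 females, and 0 passed. The 2 with the smallest p in R47H-TREM2 males, Slc3a2 and Slc7a5, were lower than in Trem2+/+ males. Their log2 fold changes were -0.49 and -0.49, both with an adjusted p of 0.779 from edgeR.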

How the data were processed

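The deposited table holds whole-number counts per gene symbol, made by the authors from reads aligned to GRCm38, per the submitters' processing notes. The aligner, the counter and its use of strand are not stated in any source used here. Columns were matched to samples by title, and 18 columns that matched no sample (6 of hippocampus, 12 of a cell culture table) were not used. Groups came from the labels' sex, genotype and name prefix. Each sample's title carries a number of its own that no label explains, so p-values may reflect technical as well as animal spread.

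Counts were tested with edgeR 4.0.16 in R 4.3.3: filterByExpr kept 16118 genes, TMM scaling, 1 fit of 6 group means over 24 libraries (common biological coefficient of variation 0.318), quasi-likelihood tests, Benjamini-Hochberg adjustment over all genes and a threshold of 0.05. Log2 values used a prior count of 2. Exon lengths came from GENCODE M21 and covered 95.3% of genes tested. Scripts were tested on simulated counts. DESeq2 1.42.0, limma 3.58.1, other scalings and filters, and leaving out libraries were tried as alternatives.

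The pathway genes and all gene lists were chosen with earlier results of these data known. All 37 genes could be named. Values in every library were given for those with the 3 smallest p in a comparison, and other genes were named when called or among the 2 smallest p of a list. Rictor, Gsk3a, Akt2, Irs2, Foxo1, Foxo3 and Mapkap1 were given more values because groups did not overlap or their spread or p stood out, after their values were seen. Motifs were also chosen then. Precision is limited by each gene's counts and, beyond counting, by the spread between libraries of a group (common biological coefficient of variation 0.318). Intervals from the fit cover that spread.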

Additional observations from a re-analysis of the deposited data

Results flagged for a closer look

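Among 114 sets of values (the 37 genes and their mean in the 3 groups of 5 or 6 libraries), 11 held a library farther from the rest than Dixon's 95% limit. For independent sets with normal spread, chance gives about 1 in 20, or 5.7. These sets share libraries and the genes are in CPM without logs, so whether 11 exceeds chance was not tested. In R47H-TREM2 females, library 2 was high in Igf1r (66.5 CPM, the next being 51.1) and in Phlpp1 (116 CPM, the next 95.6). Library 5 was high in Pik3cd (27.4 CPM, the next 19.3) and in Eif4ebp1 (14.1 CPM, the next 6.52), and library 1 was low in Mlst8 (20.6 CPM, the next 27.6).

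In R47H-TREM2 males, library 1 was high in Pik3ca (81.8 CPM, the next 68.4) and low in Foxo3 (13.2 CPM, the next 20.4), library 5 was high in Pdpk1 (157 CPM, the next 135.8), and library 4 was high in Akt2 (174 CPM, the next 111). In WT-TREM2 females, library 2 was low in Eif4ebp2 (8.46 CPM, the next 16.9) and in the mean of centred log2 CPM over the 37 genes (-0.395, the next -0.0463). No difference of effects between groups passed its test.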

How the results depend on the processing

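None of the 37 genes passed an adjusted p of 0.05 under any alternative, in any comparison or in the test over 6 groups, also not by DESeq2 or limma-voom, and none passed 0.1 with edgeR on all libraries. Pik3cg in R47H-TREM2 females came under 0.1 with DESeq2 (0.0972) and without R47H-TREM2 female 4 (0.0788), over a range of 0.0788 to 0.719. Counts over all genes moved. For R47H-TREM2 females they were 1 without the filter, 180 with DESeq2, 1 with the length slope as covariate and 0 to 7 with a library left out; for R47H-TREM2 males, 3 with DESeq2 and 0 to 48 with a library left out; for the R47H effect less the WT effect, 13 with DESeq2 and 0 to 1; for females less males, 1 with DESeq2 and 0 to 1. The test over 6 groups called 10, and 18 without the filter, 177 with DESeq2, 6 with limma-voom, 6 without the 6 libraries high in Prl, Omp or Adora2a and 21 at an adjusted p of 0.1.

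With each library left out, the median log2 fold change of the 37 genes was -0.174 to 0.00278 in R47H-TREM2 females (highest without Trem2+/+ female 3), -0.368 to 0.0144 in R47H-TREM2 males (lowest without Trem2+/+ male 1, highest without Trem2+/+ male 2), -0.16 to 0.0448 in WT-TREM2 females (highest without WT-TREM2 female 2), -0.134 to -0.00104 for R47H less WT, and -0.136 to 0.177 for females less males (lowest without Trem2+/+ male 2). In WT-TREM2 females it was 0.0291 with the length covariate and 0.0277 without the 6 libraries. The cause of these shifts was not tested. No fold change among the 3 smallest p of the 5 comparisons changed sign. With 1 control left in males, that library is assumed to vary like the others. No ratio test could pass 0.05 in this design, so only the sizes of the ratio differences can be compared. With each library left out, the Phlpp1 to Phlpp2 difference in R47H-TREM2 females was 0.44 to 0.74 on the log2 scale. It was lowest without R47H-TREM2 female 1. In WT-TREM2 females the Insr to Igf1r difference was -0.37 to -0.27, and that of Pik3cd to Pik3cb 0.75 to 1.01. No paired analysis was possible because replicate numbers were given in the order of the samples and pair nothing.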
